A study of Rattus norvegicus with 12 samples.

Results

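Regulators of G-protein signalling were followed through 8 genes of the family, Rgs1, Rgs2, Rgs3, Rgs4, Rgs7, Rgs10, Rgs16 and Rgs19. Their members on the array were all probe sets whose single gene symbol in the platform annotation is one of these names, which gave 12 probe sets. The 8 genes are among 14217 genes, on 20826 probe sets, that carry 1 symbol there. Rgs3 has 3 probe sets, Rgs2 and Rgs4 have 2 each, and the other 5 genes have 1 each.

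RGS proteins bind active G-protein alpha subunits and speed their hydrolysis of GTP, which ends the signal of a receptor sooner. The receptor for gonadotropin-releasing hormone (GnRH) acts through the Gq class of alpha subunits and phospholipase C to raise inositol trisphosphate and calcium. In gonadotropes, the pituitary cells that secrete luteinizing hormone (LH) and follicle-stimulating hormone, RGS proteins can therefore shorten the response to a GnRH pulse. Several Rgs transcripts are known from other cell types to be induced by the signals that their products damp.

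Anterior pituitaries of adult female rats (Sprague-Dawley), ovariectomised for 2 weeks, supplied the cells, and 13 to 15 glands were pooled for an experiment. Sedimentation collected the large cells, about 6% of all, and 40 to 60% of these stained for LH against under 7% before separation, per the labels. On culture day 3, in medium with 0.2 nM estradiol, kanamycin and 10% charcoal-treated fetal bovine serum that all samples shared, wells were given GnRH at 10 nM, or vehicle alone, and harvested 40 min later. The 12 samples, vehicle 1 to 6 and GnRH 1 to 6, came from 3 preparations, the enrichment sets I to III. Each set gave 2 samples per agent, and each sample was read on 1 Affymetrix rat array.

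Each value below is a probe set's signal after every array was scaled to the same trimmed mean of 500, and each difference is GnRH minus vehicle on the log2 scale after 16 was added to the signal. Levels were not compared between probe sets. On all 12 arrays the genes of the LH subunits, Lhb and Cga, were brighter than each of 27 control probe sets for Bacillus subtilis genes. These controls are called the dim controls here. Gh1, Prl and Tshb, hormone genes of other pituitary cells, were also brighter than all 27 on 12 arrays, and Pomc, another such gene, on 6. Of the other gonadotrope markers, Foxl2 exceeded all 27 on 11 arrays, Fshb on 10, Nr5a1 on 9 and the receptor gene Gnrhr on 5. No source used here says whether RNA for the dim controls was added. These are cultures enriched for gonadotropes, not pure ones, and fewer cells of a type cannot be told apart from less RNA per cell. The arrays also differed in the signal of spiked-in hybridisation controls, with geometric means of 2264 to 11705 on 5 of them (all of set I, and vehicle 5) and 53482 to 320024 on the other 7. The highest belonged to vehicle 3, whose median Spearman correlation with the other arrays was 0.336, against 0.618 to 0.686 for the rest, and values that it moved by a large factor or in sign are also given without it.

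Expression of the Rgs genes was first compared between the agents. No Rgs transcript was shown to change after 40 min of GnRH, and the largest difference among the tested probe sets was that of Rgs4, 1.57-fold higher in GnRH samples. Of the 12 probe sets, 6 were bright enough to be tested, with a mean log2 value at or above the 40th percentile of the array, and they stand for 5 genes: Rgs2, Rgs3, Rgs4, Rgs7 and Rgs16. The other 6 probe sets, which include every probe set of Rgs1, Rgs10 and Rgs19, were described without a test. By limma, 0 of the 6 tested probe sets passed an adjusted p of 0.05, against 0.00537% of all 18625 tested, and 0 of 6 had an unadjusted p under 0.05, against 3.45%. Adjusted p-values of the 6, all from limma, ran from 0.981 to 0.999.

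Signals were higher in GnRH samples for 5 of the 6 tested probe sets and lower for 1, that of Rgs7. Their median log2 difference was 0.11, beside 0.04 over all tested probe sets, of which 53.6% were higher. Without vehicle 3, 3 of the 6 were higher and 3 lower, with a median of 0.054, beside -0.025 over all tested probe sets, of which 47.4% were higher. The study called a gene up-regulated at 1.50-fold or more with 50% or more of GnRH-vehicle pairs in accord, and the same rule was also applied downward here. On these values 0 of the 6 met it upward, against 7.62% of all tested probe sets, and 0 met it downward, against 7.6%. With 1 array left out, Rgs4 1368505_at met it upward in 4 of 12 cases (vehicle 5, GnRH 1, GnRH 4 or GnRH 5 left out). The share of all tested probe sets in those cases is not given here, so they are not read as particular to Rgs4. A difference of the same sign in all 3 sets was seen upward for Rgs4 alone (12.6% of all tested probe sets) and downward for Rgs7 alone (11.4%).

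**Figure D1:**
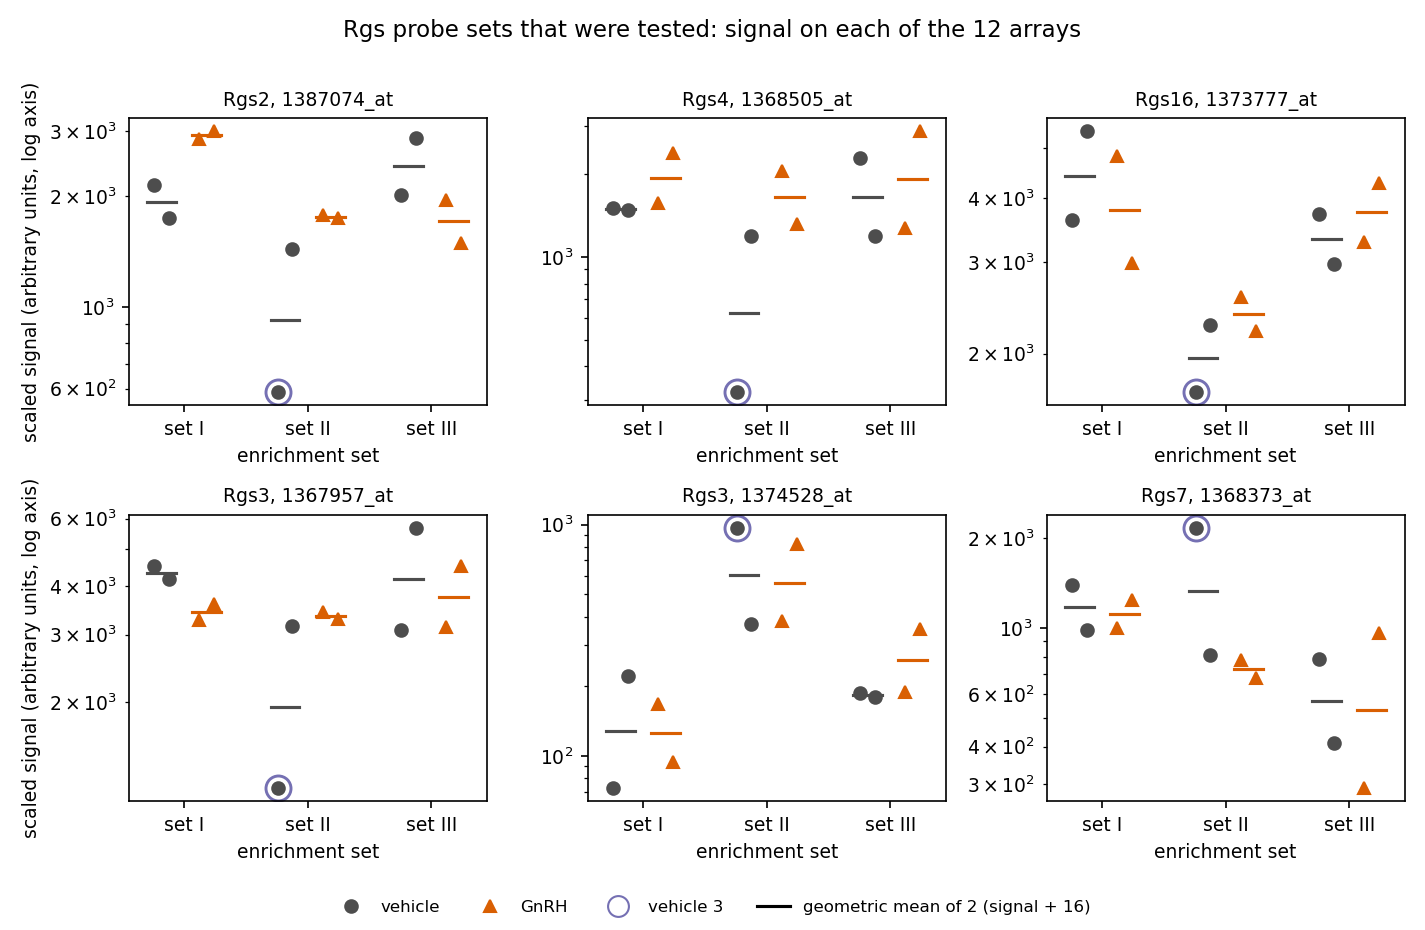
Scaled signal (log axis, arbitrary units) of the 6 tested Rgs probe sets by enrichment set, with vehicle samples as circles, GnRH samples as triangles, bars for the geometric mean of 2 samples, and a ring around vehicle 3. The ringed sample is the lowest of 12 for Rgs2, Rgs4, Rgs16 and the brighter Rgs3 probe set, and the highest for Rgs7 and the dimmer Rgs3 probe set.

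Rgs2 and Rgs4 are small RGS proteins with little beyond the RGS domain, and both act on Gq. RGS2 is known for its preference for that class, and Rgs4 is best known from brain. Their promoter windows are shown because GnRH raises calcium and kinase signals that reach genes through short elements such as the cAMP response element (CRE). Each runs from 250 bases before to 50 bases after the RefSeq gene start, 5′ to 3′ on the gene's strand in build GRCr8, and capitals mark a CRE core (TGACG, searched on both strands), which reads CGTCA on the strand shown.
Rgs2, chr13:58352617-58352916, minus strand: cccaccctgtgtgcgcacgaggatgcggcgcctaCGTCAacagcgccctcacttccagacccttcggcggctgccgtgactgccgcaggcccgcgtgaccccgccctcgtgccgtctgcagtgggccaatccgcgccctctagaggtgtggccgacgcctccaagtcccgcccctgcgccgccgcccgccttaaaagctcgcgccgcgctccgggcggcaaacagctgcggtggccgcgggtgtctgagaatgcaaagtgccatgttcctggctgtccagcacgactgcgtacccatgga
Rgs4, chr13:84475835-84476134, minus strand: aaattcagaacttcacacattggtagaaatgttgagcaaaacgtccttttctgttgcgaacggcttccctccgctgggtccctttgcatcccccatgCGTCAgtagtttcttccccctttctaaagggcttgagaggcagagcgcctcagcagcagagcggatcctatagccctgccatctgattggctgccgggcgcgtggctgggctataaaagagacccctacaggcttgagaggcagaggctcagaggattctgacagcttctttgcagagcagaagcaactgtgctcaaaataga

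A CRE core lies in the windows of 4 of the 8 genes, Rgs1, Rgs2, Rgs3 and Rgs4, as it does in 21.2% of 33469 promoters of the same length. It begins 216 bases before the start of Rgs2 and 153 before that of Rgs4, in reverse orientation in both. The full CRE (TGACGTCA, which holds a CRE core on each strand) was in 0 of the 8 windows and in 1.83% of all, and the AP-1 motif TGANTCA was in 0 and in 7.33%. The EGR motif GCGNGGGCG was in the Rgs7 window alone, and in 4.98% of all. A match describes letters in the window and says nothing of binding. Rgs2 and Rgs4 lie on rat chromosome 13, as do Rgs1, Rgs7 and Rgs16, while Rgs10 is on chromosome 1, Rgs19 on 3 and Rgs3 on 5. In the order of protein-coding genes only Rgs13 lies between Rgs2 and Rgs1, and Rgs4 and Rgs16 lie next to Rgs5 and Rgs8.

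Rgs2, read by probe set 1387074_at, had signals of 587 to 2879 in vehicle samples, with a median of 1877, and of 1493 to 2990 in GnRH samples, with a median of 1860. The ranges overlapped over most of their length and the medians lay close together. GnRH samples differed from vehicle by 0.34 ± 0.29 on the log2 scale (SE, 6 samples each; limma adjusted p = 0.981), a 1.27-fold difference with a 95% interval of 0.822 to 1.95, and 21 of the 36 GnRH-vehicle pairs were higher in GnRH. Without vehicle 3, the lowest of the 12 samples, the difference was 0.11.

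The 3 preparations did not move together for Rgs2. In set I the signals were 2137 and 1741 in vehicle and 2847 and 2990 in GnRH samples, and in set II 587 and 1432 against 1773 and 1738. Both GnRH samples thus lay above both vehicle samples in those sets. In set III the order was turned, with 2014 and 2879 in vehicle and 1946 and 1493 in GnRH samples. The set differences were 0.59, 0.92 and -0.49 (SE 0.47 each). Their inequality did not pass the limma test of the agent by set interaction (unadjusted p = 0.116, adjusted p = 0.929).

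The second Rgs2 probe set, 1368144_at, was not tested. Its signals lay between 6.82 and 63.2 on 10 of the 12 arrays and reached 461 in vehicle 3 and 344 in GnRH 5. On 0 arrays did it exceed all 27 dim controls. Its difference, without a test, was -0.21, and ran from -0.72 without GnRH 5 to 0.42 without vehicle 3.

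Rgs4, read by probe set 1368505_at, had signals of 322 to 2297 in vehicle samples, with a median of 1340, and of 1280 to 2868 in GnRH samples, with a median of 1818. Every GnRH sample lay above 3 of the vehicle samples, vehicle 3, 4 and 6, but the groups overlapped, since vehicle 1, 2 and 5 (1507, 1484 and 2297) were above GnRH 4 and 5 (1319 and 1280). GnRH samples differed from vehicle by 0.65 ± 0.36 on the log2 scale (SE, 6 samples each; limma unadjusted p = 0.0856, adjusted p = 0.981), with an interval for the fold of 0.932 to 2.65. Of the 36 pairs 28 were higher in GnRH samples, where the median of all tested probe sets was 18, and 44.4% reached 1.50-fold.

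Vehicle 3 was far below the rest of its group in Rgs4, at 322 where the next lowest vehicle sample was 1193. Without it the difference was 0.33, and without any other single array it lay between 0.48 and 0.85. The set differences were 0.37, 1.38 and 0.21 (SE 0.62 each), so the set that holds vehicle 3 had the largest, at 0.46 without that sample. The limma interaction test gave an unadjusted p of 0.378 and an adjusted p of 0.962. In set I, with 1507 and 1484 in vehicle and 1572 and 2385 in GnRH samples, both GnRH samples were higher. The other Rgs4 probe set, 1368506_at, was not tested: its signals were 37.7 to 332, above all 27 dim controls on 2 arrays, and its difference, without a test, was 0.59 over all samples. It was -0.61 in set III, and ran from 0.22 without GnRH 1 to 0.99 without vehicle 5.

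**Figure D2:**
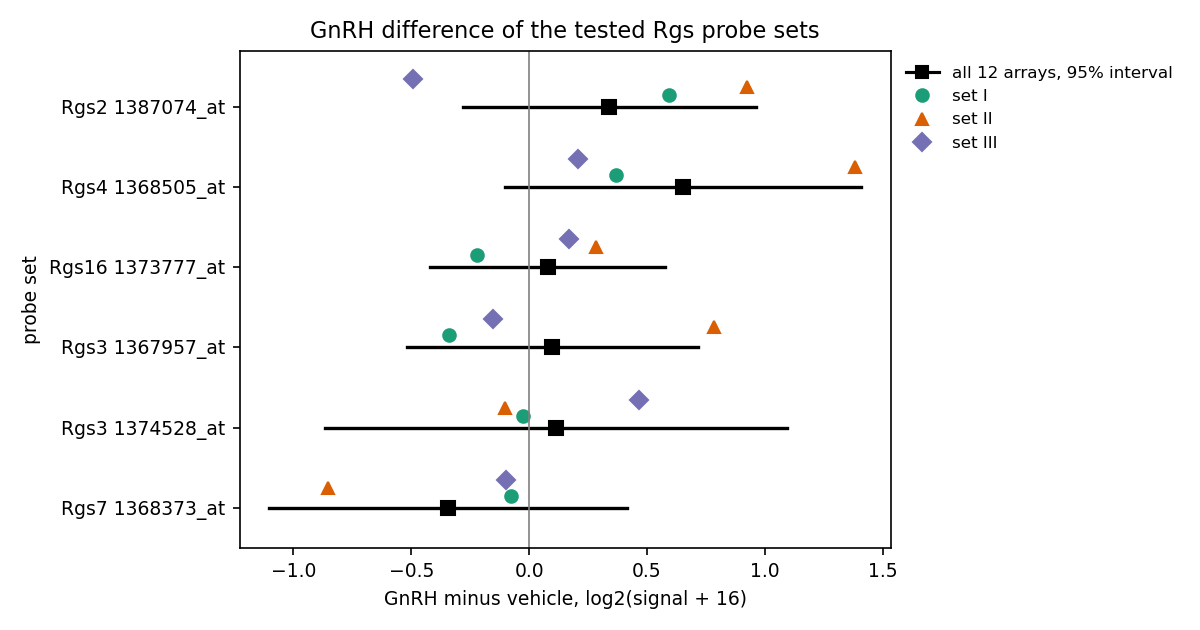
GnRH minus vehicle difference in log2(signal + 16) for the 6 tested Rgs probe sets: squares with 95% intervals (limma, n = 6 per group) over all 12 arrays, and circles, triangles and diamonds for sets I, II and III. Each interval includes 0; Rgs4 has the largest difference, 0.65, with all 3 sets above 0, and Rgs2 runs from -0.49 in set III to 0.92 in set II.

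Rgs16 and Rgs3 encode further members of the RGS subfamily that holds Rgs2 and Rgs4, and RGS3 has been shown in transfected cells to restrain signalling of the GnRH receptor. Rgs16 had signals of 1685 to 5378 in vehicle samples, with a median of 3305, and of 2216 to 4812 in GnRH samples, with a median of 3139. The GnRH range lay inside the vehicle range. GnRH samples differed from vehicle by 0.08 ± 0.24 on the log2 scale (SE, 6 samples each; limma adjusted p = 0.997), and the interval of the fold, 0.748 to 1.49, ended short of the 1.50-fold that the study asked for. Samples of 1 agent in 1 set varied with an SD of 0.32 on the log2 scale, beside a median of 0.78 over all tested probe sets. The set differences were -0.22, 0.28 and 0.17, and without vehicle 3 the difference was -0.00070.

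Rgs3, by its probe set 1367957_at, had signals of 1196 to 5683 in vehicle samples, with a median of 3660. In GnRH samples they ran from 3133 to 4517, with a median of 3360. The GnRH samples were the more alike, with an SD of 0.19 on the log2 scale against 0.78 in vehicle samples, where vehicle 3 and vehicle 6 marked the extremes. Without vehicle 3 the SD of the vehicle samples was 0.37. GnRH samples differed from vehicle by 0.10 ± 0.29 on the log2 scale (SE, 6 samples each; limma adjusted p = 0.997), with an interval for the fold of 0.698 to 1.64. It turned to -0.16 without vehicle 3.

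The sets again pointed different ways for this Rgs3 probe set. In set I the vehicle signals of 4529 and 4172 were above the GnRH signals of 3269 and 3602, and in set II the vehicle signals of 1196 and 3148 were below the GnRH signals of 3423 and 3298. The set differences were -0.34, 0.79 and -0.15 (SE 0.49 each; limma interaction unadjusted p = 0.257, adjusted p = 0.950). Rgs2 and this Rgs3 probe set are the 2 of 6 in which agents did not overlap within 2 sets while pointing in opposite directions, which held for 13.3% of all tested probe sets. Without vehicle 3 the set II differences were 0.29 for Rgs2 and 0.09 for Rgs3. No interaction passed by limma for the 6, nor for any of the 18625 (0%), with 0 of the 6 and 5.36% of all at an unadjusted p under 0.05.

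The dimmer Rgs3 probe sets gave another order of the arrays. For 1374528_at, which was tested, signals were 72.3 to 969 in vehicle and 94.3 to 821 in GnRH samples, with medians of 204 and 271, and vehicle 3 was the highest of the 12. GnRH and vehicle differed by 0.11 ± 0.46 on the log2 scale (SE, 6 samples each; limma adjusted p = 0.999), and it exceeded all 27 dim controls on 5 arrays. The difference was 0.31 without vehicle 3 and turned to -0.05 without vehicle 1. The third, 1376803_at, was not tested, with signals of 22.5 to 437 and a difference of -0.07, which ran from -0.31 without GnRH 4 to 0.38 without GnRH 3. Probe sets of 1 gene thus disagreed in how they ranked the arrays.

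Rgs7 belongs to the subfamily that works as a stable pair with the G-protein subunit encoded by Gnb5 and is found chiefly in neurons and endocrine cells. Its signals were 412 to 2163 in vehicle samples, with a median of 899, and 290 to 1236 in GnRH samples, with a median of 870. The highest was vehicle 3 and the lowest GnRH 5, and the groups overlapped between 412 and 1236. GnRH samples differed from vehicle by -0.34 ± 0.36 on the log2 scale (SE, 6 samples each; limma adjusted p = 0.981), with an interval for the fold of 0.466 to 1.33. Set differences were -0.08, -0.85 (-0.16 without vehicle 3) and -0.10. Without vehicle 3 the difference was -0.11, and without GnRH 6 it was -0.58.

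**Figure D3:**
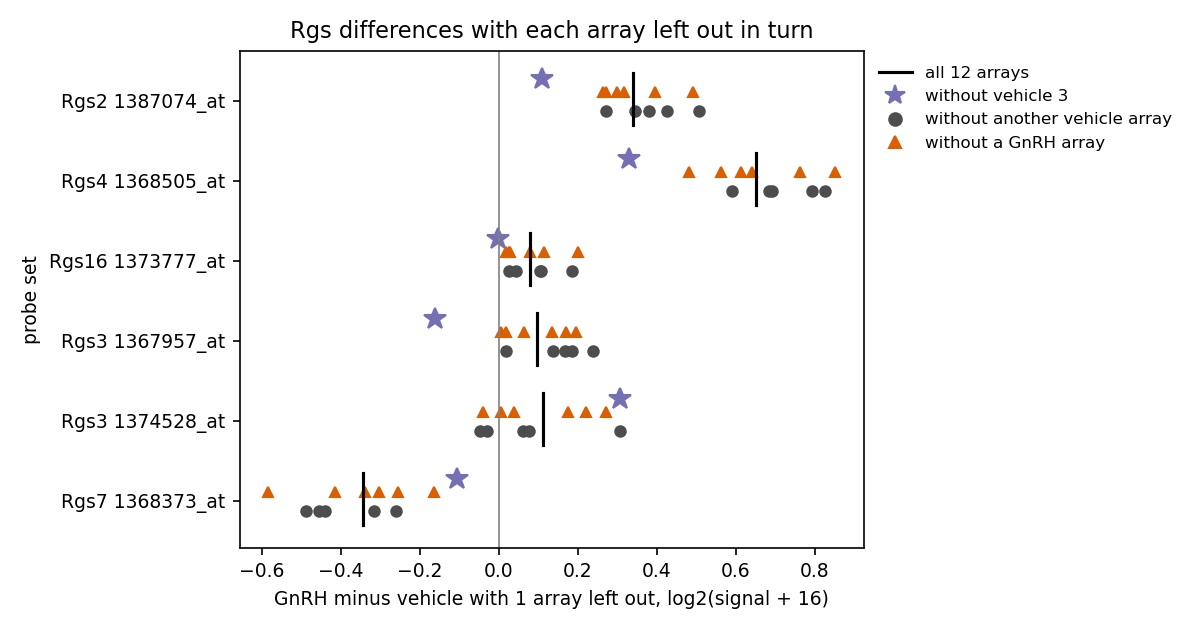
GnRH minus vehicle difference in log2(signal + 16) of the 6 tested Rgs probe sets with 1 array left out at a time: stars for vehicle 3, circles for another vehicle array, triangles for a GnRH array, and a bar for all 12 arrays. Leaving out vehicle 3 gave the lowest value for Rgs2 (0.11), Rgs4 (0.33), Rgs16 and Rgs3 1367957_at (-0.16), and the value nearest 0 for Rgs7 (-0.11).

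The dim members were described without a test. Rgs1, a lymphocyte gene in its best-known setting, had signals of 5.01 to 405 in vehicle and 13.6 to 304 in GnRH samples. The 3 values above 100 were those of vehicle 4 (405), GnRH 3 (304) and GnRH 5 (189), and all other samples lay at or below 31.8. The 3 bright samples belong to the arrays with high spike-in signal, on which the median of the 27 dim controls was also higher, at 38.0 to 250 against 10.3 to 26.2. Rgs1 exceeded all 27 on 0 arrays, and its difference of 0.56 was 0.13 without GnRH 5, 0.24 without vehicle 3 and 1.05 without vehicle 4.

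Rgs10, which is abundant in microglia and other immune cells, came closest to the brightness filter among the dim probe sets, at percentile 35.3. Its signals were 66.6 to 358 in vehicle and 22.0 to 231 in GnRH samples, with medians of 146 and 144. The difference was -0.60 over all samples, and set by set it was 0.57, -2.05 and -0.34. Leaving out 1 array gave -0.15 (vehicle 4) to -0.82 (vehicle 2), and -0.38 without GnRH 3. The set II difference was -3.14 without vehicle 3. In set II the GnRH signals were 22.0 and 31.5, below the median of the dim controls on their own arrays, whereas both GnRH samples of set I (188 and 231) were above both vehicle samples (167 and 108). Such opposite separation in 2 sets was seen in 15.6% of the probe sets below the filter.

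Rgs19, whose product prefers the inhibitory Gi class of alpha subunits, had signals of 17.3 to 647 in vehicle and 12.4 to 35.1 in GnRH samples. The vehicle median was 52.5 and the GnRH median 27.0, and vehicle 3 stood alone at 647. Its difference of -1.08 was -0.53 without vehicle 3. Rgs10 and Rgs19 met the criterion as applied here downward, as did 11.4% of the probe sets below the filter. Upward, 0 of the 6 dim Rgs probe sets met it, against 15.7%. With 1 array left out, Rgs1 met it upward without vehicle 4 or GnRH 1, and Rgs2 1368144_at downward without GnRH 5. The shares over all dim probe sets in those cases are not given here. Rgs19 no longer met it without vehicle 3, and Rgs10 no longer met it without vehicle 4, vehicle 6, GnRH 3 or GnRH 4. Rgs19 exceeded all 27 dim controls on 0 arrays and Rgs10 on 4, so that the sizes of these differences are those of signals near background.

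**Figure D4:**
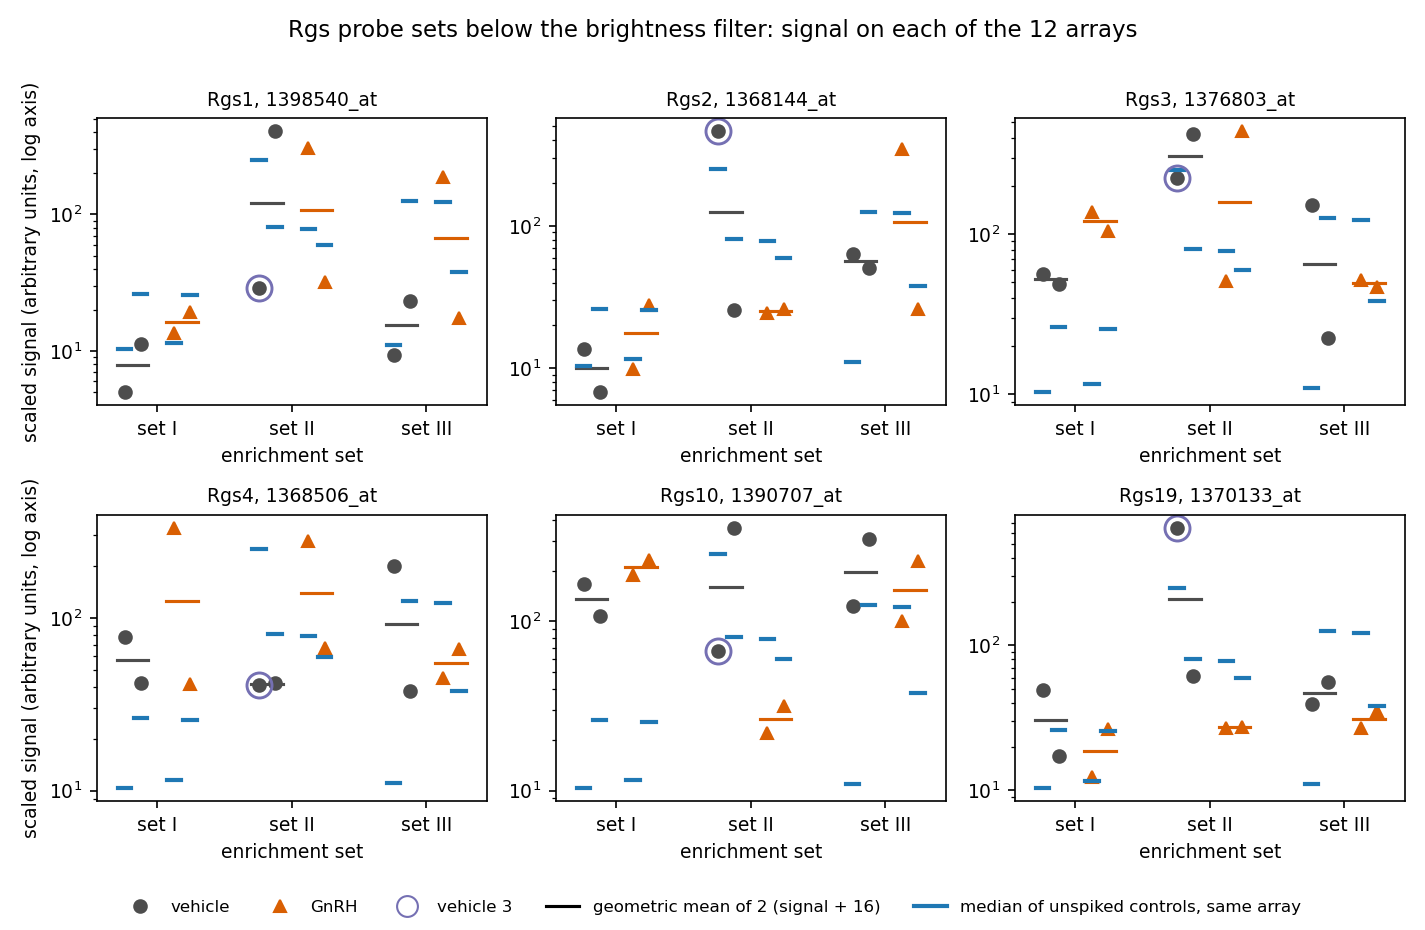
Scaled signal (log axis, arbitrary units) of the 6 Rgs probe sets below the brightness filter, by enrichment set, with vehicle samples as circles, GnRH samples as triangles, black or orange bars for the geometric mean of 2 samples, and a short blue bar for the median of the dim controls on the same array. Rgs1 and Rgs19 lie at or below the blue bar on 8 and 7 of the 12 arrays, and the highest Rgs19 signal is that of vehicle 3, 647.

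Because Rgs1 and Rgs10 are known from immune cells, leukocyte markers were read beside them. Of 10 markers 6 were tested and 0 were called by limma. The summed signal of the 10 was 1444 to 4007 in vehicle and 1449 to 3035 in GnRH samples. Fcer1g and Aif1 exceeded all 27 dim controls on 9 arrays each, Lyz2 on 7, C1qa on 6, Cd74 on 5 and Laptm5 on 3. Ptprc, Cd68 and Tyrobp did so on 1 array each, and Cd53 on 0. The part of leukocytes in the Rgs1 and Rgs10 signals was not tested.

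The enrichment sets were also compared with each other. By limma, 0 of the 6 tested Rgs probe sets differed in level between sets at an adjusted p under 0.05, against 6.02% of all tested. Without adjustment 2 of 6 had a p under 0.05, against 27.8%. They were Rgs3 1374528_at (adjusted p = 0.0716), with mean log2 values of 7.16, 9.22 and 7.87 from set I to III, and Rgs16 (adjusted p = 0.0974), whose means were 12.00, 11.09 and 11.79. Set II was thus the brightest for the dimmer Rgs3 probe set and the dimmest for Rgs16. Without vehicle 3, a sample of set II, 3 of 6 had an unadjusted limma p under 0.05: Rgs16 (0.0260), Rgs3 1374528_at (0.0280) and Rgs7 (0.0413). Their adjusted p-values were 0.121, 0.125 and 0.153. The share over all tested probe sets is not given for that fit, and the 27.8% belongs to all 12 arrays. The count is therefore not read as particular to the Rgs probe sets.

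These levels also differed with the spike-in signal. All arrays of set I had low spike-in signal, so set and spike-in level cannot be fully told apart. On the 5 arrays with low spike-in signal Rgs16 was 1.51-fold brighter than on the other 7, Rgs2 1.47-fold, and Rgs4 and Rgs7 1.44-fold each, on the scale of signal plus 16. Rgs3 1367957_at was 1.15-fold brighter there. Without vehicle 3 the folds were 1.4 for Rgs16, 1.26 for Rgs2, 1.16 for Rgs4, 1.72 for Rgs7 and 0.98 for Rgs3. In all, 5 of the 12 probe sets were brighter on the 7 arrays. They were Rgs1 (3.54-fold), Rgs3 1374528_at (2.65-fold), Rgs2 1368144_at (2.38-fold), Rgs19 (1.78-fold) and Rgs3 1376803_at (1.17-fold). Without vehicle 3 these folds were 4.02, 2.29, 1.79, 1.24 and 1.06, and Rgs3 1367957_at was also brighter there, 1.02-fold. The share over all probe sets is not given here, so the count is a description. With the spike-in level in the model, the GnRH differences were 0.89 for Rgs4, 0.48 for Rgs2, 0.13 for Rgs3, 0.13 for Rgs16 and -0.38 for Rgs7, and 0 of the 6 passed by limma.

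The genes most like Rgs2 and Rgs4 were sought among the other 10679 tested genes, by Pearson's correlation over the 12 arrays after the mean of each set was subtracted. For Rgs2 they were Tpm1 (0.96), Bex3 (0.95) and Atp1b3 (0.95), and for Rgs4 Ywhaq (0.98), Mcfd2 (0.98) and Prkacb (0.97). Without vehicle 3 these correlations were 0.91, 0.85 and 0.88, and 0.95, 0.94 and 0.92. The genes were picked as the highest of 10679 on all 12 arrays, and the ranking was not repeated without vehicle 3. High values on the remaining arrays follow in part from that choice, so they are no separate check. The arrays share 3 preparations and the spread in spike-in level, and the values are given as a description.

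Other genes of the pathway were read from lists, each gene by its brightest tested probe set. Of 13 tested genes for other RGS-domain proteins and G-protein regulators, 6 were higher and 7 lower in GnRH samples, and by limma 0 passed upward and 0 downward. Their median log2 difference was -0.22, beside 0.10 for the 5 tested Rgs members and 0.04 for all 10680 tested genes. Without vehicle 3 the medians were -0.21, -0.00070 and -0.04. The smallest p-values were those of Rgs8 (-0.80 ± 0.43, SE), the guanine exchange factor gene Ric8a (-0.45 ± 0.27) and Gnb5 (0.36 ± 0.24), the partner of Rgs7.

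G-protein alpha subunit genes, the targets of RGS proteins, were higher in 2 and lower in 6 of 8 tested cases, with a median of -0.20 and 0 passing by limma in either direction. Gnao1 differed by -0.86 ± 0.53 (SE), Gna12 by -0.37 ± 0.23 and Gnai2 by -0.35 ± 0.29. Of the Gq class, Gna11 differed by -0.03 ± 0.42 and by 0.24 without vehicle 3, and Gnaq was below the filter.

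Receptor kinases and arrestins, which switch receptors off by another route, had 3 of 5 tested genes higher and a median of 0.10, again with 0 passing by limma in either direction. Grk6 differed by 0.62 ± 0.44 (SE), but by 0.07 without vehicle 3, Arrb1 by 0.38 ± 0.33 and by 0.25, and Grk4 by -0.70 ± 0.71 and by -0.19. Of 11 tested genes for the GnRH receptor and Gq effectors 5 were higher and 6 lower, with a median of -0.06 and 0 passing in either direction by limma. The inositol trisphosphate receptor gene Itpr3 (-1.42 ± 0.57, SE) was the 1 gene of these lists with an unadjusted p under 0.05, as had 3.29% of all tested genes. Its limma p was 0.0240, and 0.981 after adjustment over all tested probe sets. Plcb2, which encodes a phospholipase C, differed by 1.11 ± 0.56 and the protein kinase C gene Prkce by 0.58 ± 0.41.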

How the data were processed

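The deposited table holds intensity signals of 31099 probe sets in 12 samples on a linear scale, which the authors made in GCOS, Affymetrix's array software, per the submitters' processing notes. The GCOS version is not given in the sources used here. Amplification took 2 T7 rounds, per the labels' protocols. The authors' values had trimmed means of 497 to 499 before they were rescaled here to 500 with 2% trimmed at each end. A pseudocount of 16 was added and log2 taken, so folds of dim genes are understated.

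GnRH and vehicle were compared over 18625 probe sets in limma 3.58.1 under R 4.3.3, with the enrichment set and the agent in the model, an intensity trend, and Benjamini-Hochberg adjustment over all of them. Interaction and set effects used moderated F tests. The procedure was checked on simulated data. The labels call the samples biological replicates without saying that those of 1 set came from separate cultures, so p-values measure the spread between these samples, which may be technical. Columns of other samples numbered 0. GCOS change calls, which the study's criterion used, were not recomputed.

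Every member and probe set is named, with up to 3 genes of smallest p from each list. A gene with several probe sets is read by its brightest tested one. Members and lists were chosen with earlier results of these data known. Promoters are from RefSeq, build GRCr8, and matched 8 of 8 members by symbol. Alternatives covered the pseudocount, normalization, filter, model terms, variance trend and each array left out.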

Additional observations from a re-analysis of the deposited data

Results flagged for a closer look

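In each group of 6 samples, the highest and lowest sample of each Rgs probe set was checked for its distance from the nearest other, over the group's range. Of 24 groups 5 held such a sample, where independent, normally distributed samples would give about 1 in 20. The groups share the same 12 arrays, and the share over all probe sets is not given here. The count is therefore a description and not an excess of the Rgs probe sets. Vehicle 3 was the lowest vehicle sample for Rgs4 1368505_at (322, next 1193) and the highest for Rgs19 (647, next 61.0). Vehicle 4 was the highest for Rgs1 (405, next 29.0), GnRH 5 the highest for Rgs2 1368144_at (344, next 27.8) and GnRH 1 the lowest for Rgs19 (12.4, next 26.4). All of these but Rgs4 are probe sets below the brightness filter. For Rgs10, also below the filter, GnRH samples lay above vehicle samples in set I (log2 difference 0.57) and below them in set II (-2.05), and this difference between sets was not tested.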

How the results depend on the processing

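By limma, 0 of the tested Rgs probe sets passed under each of the 23 alternatives, as did 0 tests of the interaction and of the set effect under the alternatives run for them. The 1 call among all probe sets was lost (0 called) with a pseudocount of 1, quantile normalization, a filter at the 60th percentile, no set term, no variance trend or the replicate block. Leaving out vehicle 3 gave 1 call, and leaving out any other single array gave 0. With quantile normalization 1 Rgs probe set met the study's criterion, as applied here to signal ratios, upward: Rgs4 1368505_at, 1.72-fold with 50% of pairs. The share of all tested probe sets that met it in that setting is not given here. Leaving out each array was chosen after seeing the data for this criterion. It gave 0 to 1 upward among the tested and 1 to 3 downward among the dim Rgs probe sets. It also gave 3 to 5 tested Rgs probe sets higher in GnRH samples. Shares over all probe sets are not given for each of these cases, so the counts are a description. Of the tested genes, Rgs2 (by 1387074_at) and Rgs4 (by 1368505_at) kept the sign of their difference under all 23 alternatives, at 0.11 to 0.51 and 0.33 to 0.89. The untested Rgs2 probe set 1368144_at did not keep its sign, at -0.72 to 0.42 with each array left out. Leaving out each array gave -0.16 to 0.24 for Rgs3 and -0.00070 to 0.20 for Rgs16, and the sign turned for both without vehicle 3. With vehicle 3 and vehicle 5 both left out, an alternative chosen after seeing the data, Rgs3 was -0.29 and Rgs7 0.023. The labels' replicate numbers were not used as pairs in the main model. After removal of set and agent means same-numbered samples correlated at -0.14 to -0.03, and 3 of 12 samples correlated best with their own number. With 2 samples per set and agent these deviations mirror each other, so the 2 numbers of a set give the same value. The check therefore cannot decide whether same-numbered samples belong together. The replicate block left 0 Rgs probe sets called. The number of arrays, and the signals of the dim probe sets, close to those of the dim controls, limit the precision.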
